A study of Mus musculus with 2 samples.

Results

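The genes of the NF-kappaB transcription factor system, namely its DNA-binding subunits, the IkappaB inhibitors and Tnfaip3, were compared between IL-5+ and IL-5- memory T helper 2 (Th2) cells. Members were all probe sets annotated with a single gene symbol among 10 symbols: Nfkb1, Nfkb2, Rel, Rela, Relb, Nfkbia, Nfkbib, Nfkbie, Nfkbiz and Tnfaip3. This gave 19 probe sets of 9 genes, out of 45037 probe sets and 18193 named genes on the array, and Nfkb1 was not analysed here. The rule uses symbols and no measured value, although earlier results of these arrays were known when the members were chosen.

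Both groups began as splenic CD4 T cells of DO11.10 mice on the BALB/c background, whose transgenic T cell receptor recognises an ovalbumin (OVA) peptide. They were stimulated with that peptide for 6 days under Th2 conditions, with IL-2 at 25 U/ml and IL-4 at 100 U/ml. The cells were then moved into BALB/c nu/nu mice, athymic hosts that make few T cells of their own, and collected from the spleen after 30 days. The IL-5+ group was the sorted fraction labelled IL-5+, and the IL-5- group was the fraction labelled IL-5-. Per the labels, both came from donors with the same transgene and had the same history. The ages of the mice, the number of hosts, any pooling and the stimulation used before the sort are not given in the labels. Total RNA of each fraction was hybridised to 1 Affymetrix array, which leaves no replicate and no p-value. In such bulk RNA, fewer cells of a type and less RNA per cell cannot be told apart.

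NF-kappaB proteins bind DNA as dimers of Rel, Rela, Relb and the processed products of Nfkb1 and Nfkb2. In resting cells the IkappaB proteins hold these dimers back in the cytoplasm. Signals from the T cell receptor and from receptors of the TNF and IL-1 families lead to degradation of the inhibitors, and the freed dimers switch on cytokine, survival and feedback genes, several of the inhibitors among them. In T cells this system takes part in activation, in cytokine production and in Th2 differentiation.

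Signals are linear intensities deposited by the authors, and each difference is the log2 ratio of IL-5+ over IL-5-. The arrays were matched in scale, with mean signals of 496.4 for IL-5+ and 496.6 for IL-5- cells after removal of the lowest and highest 2%. A floor of 36.3, the 40th percentile over both arrays, replaced lower signals. All 19 probe sets lay above the floor on both arrays, and the lowest signal among them was 280.6. As a measure of error, only the SD of the log2 ratio between different probe sets of one gene was at hand. It was 0.37 at mean signals from 112.8 to 500, 0.21 from 500 to 2000 and 0.13 above 2000. It compares only probe sets of a gene in the same signal range, so it leaves out disagreement between bright and dim probe sets of a gene. It also leaves out all variation between cell preparations. The sorting marker Il5 itself read 37085 in IL-5+ cells and 67.4 in IL-5- cells. Of the T cell markers, Cd3d read 9116 in IL-5+ and 13553 in IL-5- cells and Thy1 read 8899 in IL-5+ and 7801 in IL-5- cells. Cd4 was dimmer, at 454.5 in IL-5+ and 471.0 in IL-5- cells. Of the 6 markers measured, 5 were below 0 and 1 above (median -0.46), with 2 lower by 1.5-fold and 0 past 2-fold. Over all 13133 genes above the floor, 7285 were below 0, 2.85% were 2-fold higher and 4.01% 2-fold lower.

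**Figure D1:**
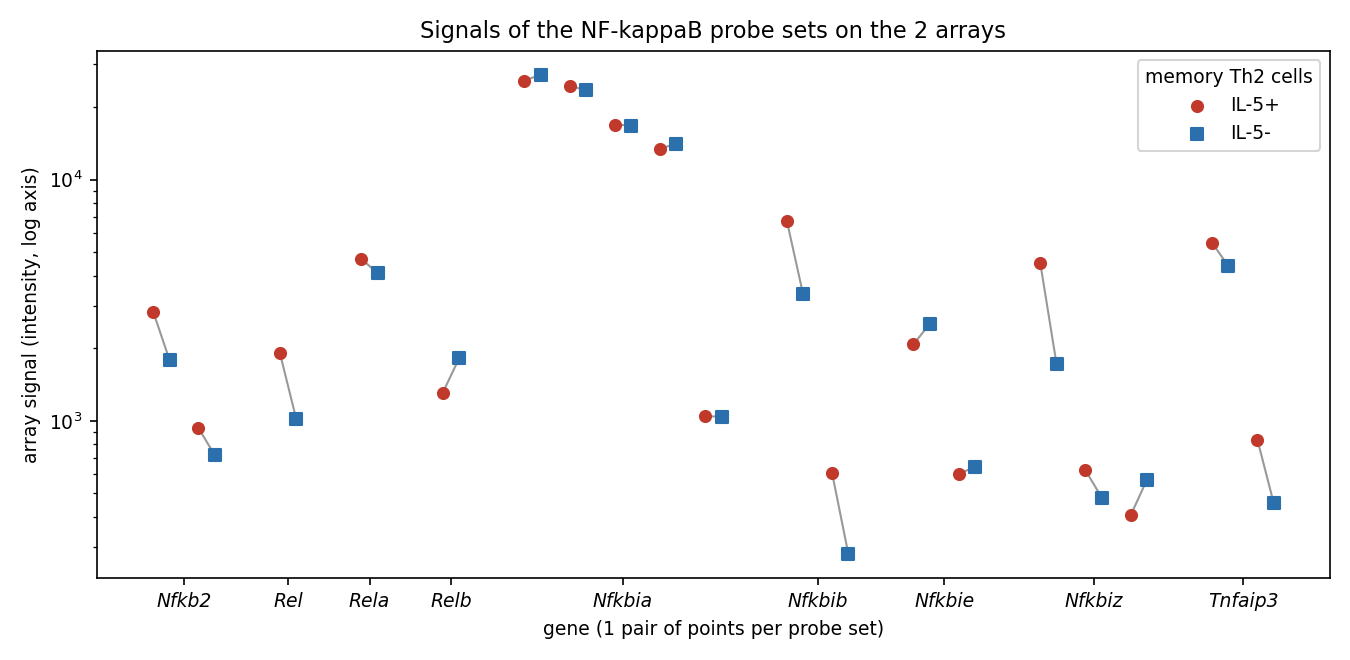
Array signal (intensity, log axis) of each of the 19 probe sets, grouped by gene, with the IL-5+ array as circles and the IL-5- array as squares joined by a line. Both Nfkbib pairs slope down from IL-5+ to IL-5- and the 5 Nfkbia pairs are nearly level, and the 3 Nfkbiz pairs slope in different directions.

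The difference between the fractions lay in a few members. At the brightest probe set of each gene, Nfkbiz and Nfkbib were at least 2-fold higher in IL-5+ cells, Rel and Nfkb2 were at least 1.5-fold higher, and no member was lower by 1.5-fold. Nfkbia differed between the fractions by 0.082 or less on the log2 scale at all of its probe sets. The 2-fold count was thus 2 of 9 genes higher and 0 lower. Among all 13133 genes above the floor, 2.85% were 2-fold higher and 4.01% were 2-fold lower, and 7.88% and 11.9% passed 1.5-fold in these directions. All 9 members had a signal of 500 or more, and among the 6129 genes this bright the 2-fold shares were 2.22% higher and 2.46% lower. At 1.5-fold, 4 members were higher and 0 lower, against 5.60% and 6.49% of the bright genes. The median log2 ratio over the 9 genes was 0.32, against -0.024 over the bright genes, and 6 of the 9 were above 0, as were 46.1% of the bright genes. With quantile or loess scaling Nfkbib stood at 0.98 and 0.99 and the 2-fold count was 1. It was also 1 when the probe sets of a gene were summarised by their median, where Nfkbiz stood at 0.38.

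**Figure D2:**
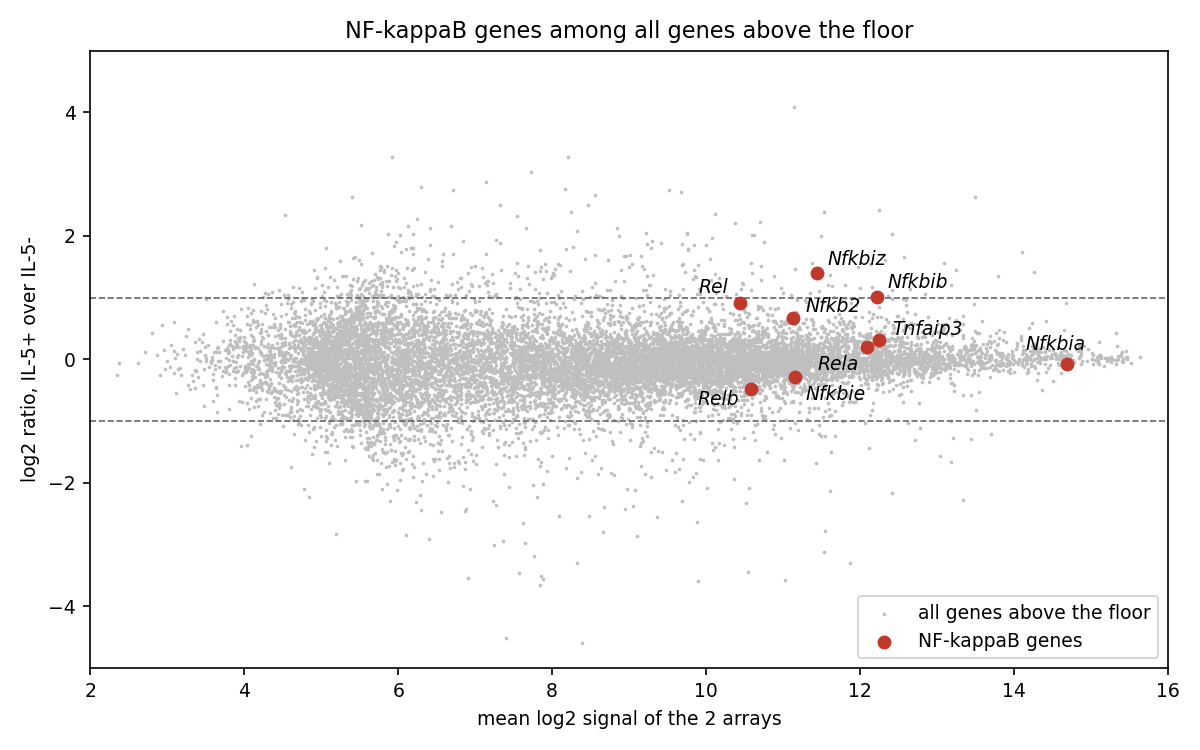
Log2 ratio (IL-5+ over IL-5-) against the mean log2 signal of the 2 arrays for all 13133 genes above the floor in grey and the 9 NF-kappaB genes in red, with dashed lines at 2-fold. Nfkbiz and Nfkbib lie on or above the upper line, Rel lies just under it, and 1 gene beyond the axes, Il5, is not drawn.

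The promoters of the members were searched because several genes of this system are themselves known NF-kappaB targets. RefSeq sequence (GRCm38.p6), from 250 bases before to 50 bases after each annotated start, was at hand for 7 of the 9 genes: Nfkb2, Rel, Rela, Nfkbia, Nfkbib, Nfkbie and Tnfaip3. Both strands were searched for the kappaB consensus, the 10-base recognition motif of NF-kappaB dimers, and overlapping matches were joined into 1 stretch. The consensus was read as GGG, A or G, any base, A or T, C or T, C or T, and CC. Sequences that depart from it at any position were not counted. At least 1 promoter of 5 of the 7 genes held a match, as did 5.14% of the 27025 genes with a promoter in that table. The 4 sequences below are those of the subunit genes that were at least 1.5-fold higher in IL-5+ cells (Rel and the most upstream start of Nfkb2), of the member with the smallest difference (Nfkbia) and of a 2-fold higher member without a match (Nfkbib). Each reads 5′ to 3′ on the strand of its gene, and capitals mark the matches. The Rel promoter lies at chr11:23770920-23771219 on the minus strand, that of Nfkb2 at chr19:46304487-46304786 on the plus strand, that of Nfkbia at chr12:55492598-55492897 on the minus strand and that of Nfkbib at chr7:28766595-28766894 on the minus strand.
Rel: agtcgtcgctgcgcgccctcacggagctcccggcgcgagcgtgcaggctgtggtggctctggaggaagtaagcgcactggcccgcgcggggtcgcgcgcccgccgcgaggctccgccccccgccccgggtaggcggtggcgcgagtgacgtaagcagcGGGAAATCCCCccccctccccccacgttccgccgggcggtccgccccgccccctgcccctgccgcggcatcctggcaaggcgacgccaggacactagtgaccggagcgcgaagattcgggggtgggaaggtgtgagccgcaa
Nfkb2: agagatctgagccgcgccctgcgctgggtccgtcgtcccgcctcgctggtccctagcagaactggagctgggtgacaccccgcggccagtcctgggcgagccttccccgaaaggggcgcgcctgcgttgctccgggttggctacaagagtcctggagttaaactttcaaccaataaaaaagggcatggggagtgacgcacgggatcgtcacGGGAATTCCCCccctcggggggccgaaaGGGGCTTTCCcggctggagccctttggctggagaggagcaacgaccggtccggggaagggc
Nfkbia: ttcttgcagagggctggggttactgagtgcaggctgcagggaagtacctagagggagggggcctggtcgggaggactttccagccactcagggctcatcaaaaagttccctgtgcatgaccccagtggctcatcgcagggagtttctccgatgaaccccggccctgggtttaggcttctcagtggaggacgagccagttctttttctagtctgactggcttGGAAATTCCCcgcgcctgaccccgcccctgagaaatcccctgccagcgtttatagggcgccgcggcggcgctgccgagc
Nfkbib: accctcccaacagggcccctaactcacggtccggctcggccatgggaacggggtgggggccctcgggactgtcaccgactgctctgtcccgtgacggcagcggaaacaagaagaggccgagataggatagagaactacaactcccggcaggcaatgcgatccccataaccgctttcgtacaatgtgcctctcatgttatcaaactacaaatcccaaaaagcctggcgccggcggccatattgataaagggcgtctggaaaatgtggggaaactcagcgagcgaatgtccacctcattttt

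In the Rel promoter the matched stretch of 11 bases, GGGAAATCCCC, ran from 92 to 82 bases before the start and held overlapping matches on both strands. The Nfkb2 promoter held GGGAATTCCCC from 39 to 29 bases before the start and GGGGCTTTCC from 11 to 2 bases before it. Further Nfkb2 starts on the same strand, whose windows overlap each other, also held matches. The single Nfkbia match, GGAAATTCCC, lay on the opposite strand from 29 to 20 bases before the start. The Nfkbie promoter held GGGGGATTCC from 106 to 97 bases before its start, and that of the upstream Tnfaip3 start held GGGACACCCC and GGAAATCCCC, the second of them from 12 to 3 bases before the start. No match was found in the windows of Nfkbib and of Rela, a subunit gene that was also higher in IL-5+ cells, by less than 1.5-fold, nor at the other Tnfaip3 start. A match to these letters is a description of the sequence and does not show binding in these cells.

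**Figure D3:**
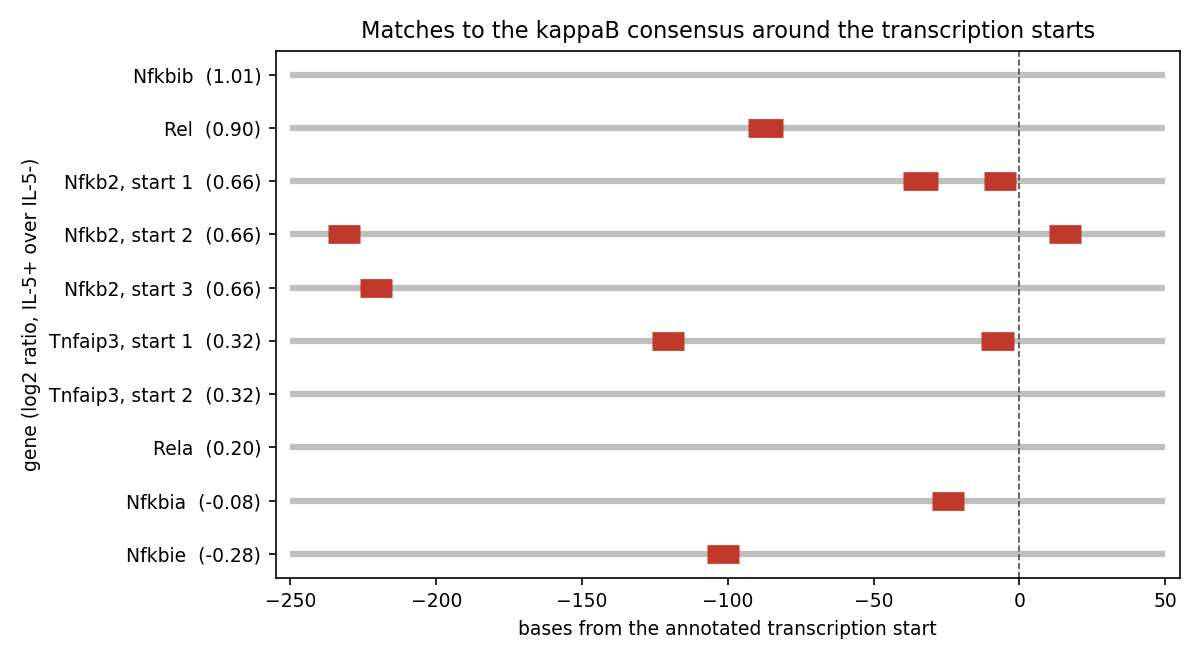
Position of matches to the kappaB consensus (red) in the 300 bases around each annotated start of the 7 genes with a RefSeq promoter, in bases from the start, ordered by the log2 ratio of the gene given in parentheses. Matches occur both in genes higher in IL-5+ cells (Rel at 0.90, Nfkb2 at 0.66) and in genes below 0 (Nfkbia at -0.082, Nfkbie at -0.28), and the gene with the highest ratio shown, Nfkbib (1.01), has none.

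Among the subunits, Rel stood highest. Rel encodes c-Rel, a transactivating subunit abundant in lymphocytes that takes part in Il2 transcription in T cells. Its only probe set (1420710_at) read 1906 in IL-5+ cells and 1018 in IL-5- cells. This is a 1.87-fold difference (log2 ratio 0.90), 4.41 times the SD between probe sets of one gene at that signal. Only 2.51% of the bright genes had a higher ratio. Rel, Rela and Relb had 1 probe set each, so their values have no second measurement.

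Nfkb2 encodes p100, which is cut to the p52 subunit in the non-canonical pathway and which, uncut, acts as an inhibitor. Its brighter probe set gave 2831 in IL-5+ cells and 1788 in IL-5- cells (1.58-fold, log2 ratio 0.66), and its other probe set gave 932.9 in IL-5+ and 719.8 in IL-5- cells (log2 ratio 0.37). Both were thus higher in IL-5+ cells, the first by 4.96 and the second by 1.82 times the SD in its signal range. The signal does not tell whether p100 was processed.

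Rela encodes p65, the main transactivating subunit of the canonical pathway, which is controlled largely by its release from IkappaB. Its probe set gave 4690 in IL-5+ cells and 4086 in IL-5- cells, a log2 ratio of 0.20 or 1.49 times the SD. The difference was small, and 21.4% of the bright genes had a higher ratio. On these arrays the ratio of Rel therefore exceeded that of Rela by 0.71 on the log2 scale.

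Relb, the partner of p52 in the non-canonical pathway, was the member with the lowest ratio. It read 1308 in IL-5+ cells and 1817 in IL-5- cells, a log2 ratio of -0.47 (2.31 times the SD), and 9.38% of the bright genes were lower. Relb and Nfkb2 encode partners of one dimer, and their ratios lay on opposite sides of 0, 1.14 apart on the log2 scale. The direction of each held under all alternatives tried that gave a value, with Relb from -0.47 to -0.40 and Nfkb2 from 0.52 to 0.74.

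**Figure D4:**
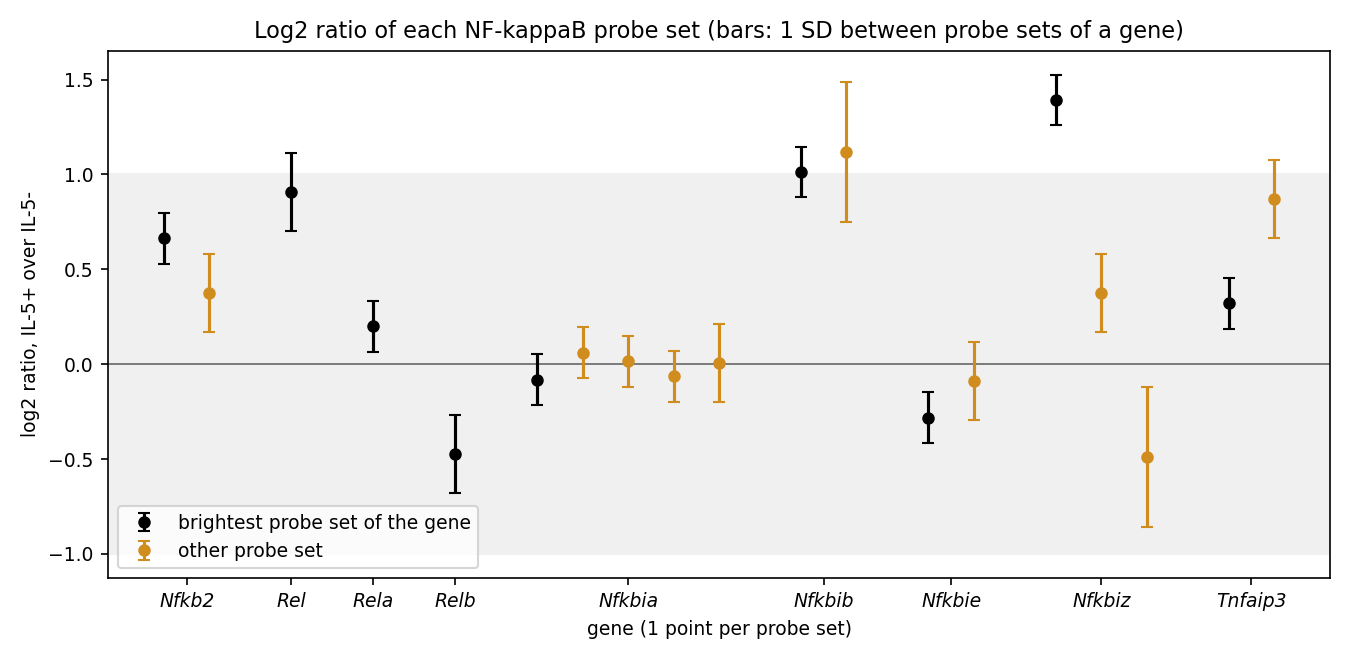
Log2 ratio (IL-5+ over IL-5-) of each of the 19 probe sets, grouped by gene, with the brightest probe set of a gene in black and others in orange. Bars are 1 SD between probe sets of the same gene at that signal, and the grey band marks differences under 2-fold, above which lie both Nfkbib probe sets (1.01 and 1.12) and 1 of 3 Nfkbiz probe sets (1.39).

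At the brightest probe set of each gene, the 4 subunit genes ranged from -0.47 to 0.90 in log2 ratio. The 4 inhibitor genes ranged from -0.28 to 1.39, the latter for Nfkbiz, whose other probe sets gave 0.38 and -0.49. Nfkbia encodes IkappaBalpha, the inhibitor that is degraded and made again within each round of canonical signalling. Its 5 probe sets gave signals of 25704, 24465, 16906, 13449 and 1044 on the IL-5+ array, and in the same order 27206, 23480, 16734, 14051 and 1039 on the IL-5- array. The log2 ratios ran from -0.082 to 0.059, all within 1 SD. The dimmest of the 5 gave a ratio of 0.0069. Nfkbia thus differed by less than the SD at every probe set.

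Nfkbib encodes IkappaBbeta, which binds many of the same dimers and is degraded more slowly. Its brighter probe set (1421266_s_at) gave 6760 in IL-5+ cells and 3350 in IL-5- cells, a 2.02-fold difference (log2 ratio 1.01, 7.57 times the SD). Its second probe set gave 608.8 in IL-5+ and 280.6 in IL-5- cells (2.17-fold, log2 ratio 1.12, 3.03 times the SD). It was the only member with 2 or more probe sets that were all 2-fold higher in IL-5+ cells. The log2 ratio of Nfkbib exceeded that of Nfkbia by 1.09 and was close to that of Rel, 0.11 apart. Over the alternatives it ranged from 0.98 to 1.12, so its side of the 2-fold line depends on scaling and its direction does not.

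Nfkbie encodes IkappaBepsilon, a further inhibitor that is induced by NF-kappaB. Its signals were 2076 in IL-5+ cells and 2524 in IL-5- cells (log2 ratio -0.28, 2.11 times the SD), and 603.9 in IL-5+ and 641.7 in IL-5- cells at its second probe set (-0.088, 0.427 times the SD). Nfkbie was thus slightly lower in IL-5+ cells at its bright probe set and within the SD at the other.

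Nfkbiz encodes IkappaBzeta, an atypical nuclear member of the IkappaB family that binds the p50 subunit and acts as a cofactor for genes such as Il6 in macrophages. Its brightest probe set (1417483_at) gave 4523 in IL-5+ cells and 1724 in IL-5- cells, the highest ratio among the members at 2.62-fold (log2 ratio 1.39, 10.4 times the SD). Its other probe sets did not give this difference. The second (1448728_a_at) gave 622.9 in IL-5+ and 480.2 in IL-5- cells (log2 ratio 0.38), and the third (1457404_at) gave 405.9 in IL-5+ and 570.0 in IL-5- cells, which is lower in IL-5+ cells (-0.49). The 3 probe sets therefore disagree in size and in direction, and the 2-fold difference of Nfkbiz rests on 1 of them. They lie in different signal ranges, so the SD does not cover their disagreement. Whether they measure different transcripts was not tested.

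Tnfaip3 encodes A20, a ubiquitin-editing enzyme that ends NF-kappaB signalling and is induced by it. Its signals were 5458 in IL-5+ cells and 4373 in IL-5- cells (log2 ratio 0.32, 2.39 times the SD), and 833.9 in IL-5+ and 455.5 in IL-5- cells at its second probe set (0.87, 4.25 times the SD). Both probe sets were thus higher, by 1.25-fold and 1.83-fold. Of the 6 members with more than 1 probe set, Nfkb2, Nfkbib, Nfkbie and Tnfaip3 had probe sets of 1 direction.

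The other genes of the pathway were taken from 8 lists of its steps, which hold 100 different genes, 89 of them above the floor. Of these, 8 were at least 2-fold higher in IL-5+ cells and 10 at least 2-fold lower, or 8.99% and 11.2%, against 2.85% and 4.01% of all genes. Their median log2 ratio was -0.060, against -0.048 over all genes. Most genes at these steps stayed within 2-fold, as did most genes on the arrays, and those past it lay on both sides. The shares past 2-fold were larger than over all genes in both directions. This difference was not tested, and the lists were chosen with earlier results of these arrays known. The lists contain cytokines and receptors, and Traf1, Bcl3 and Birc3 stand in 2 lists each.

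**Figure D5:**
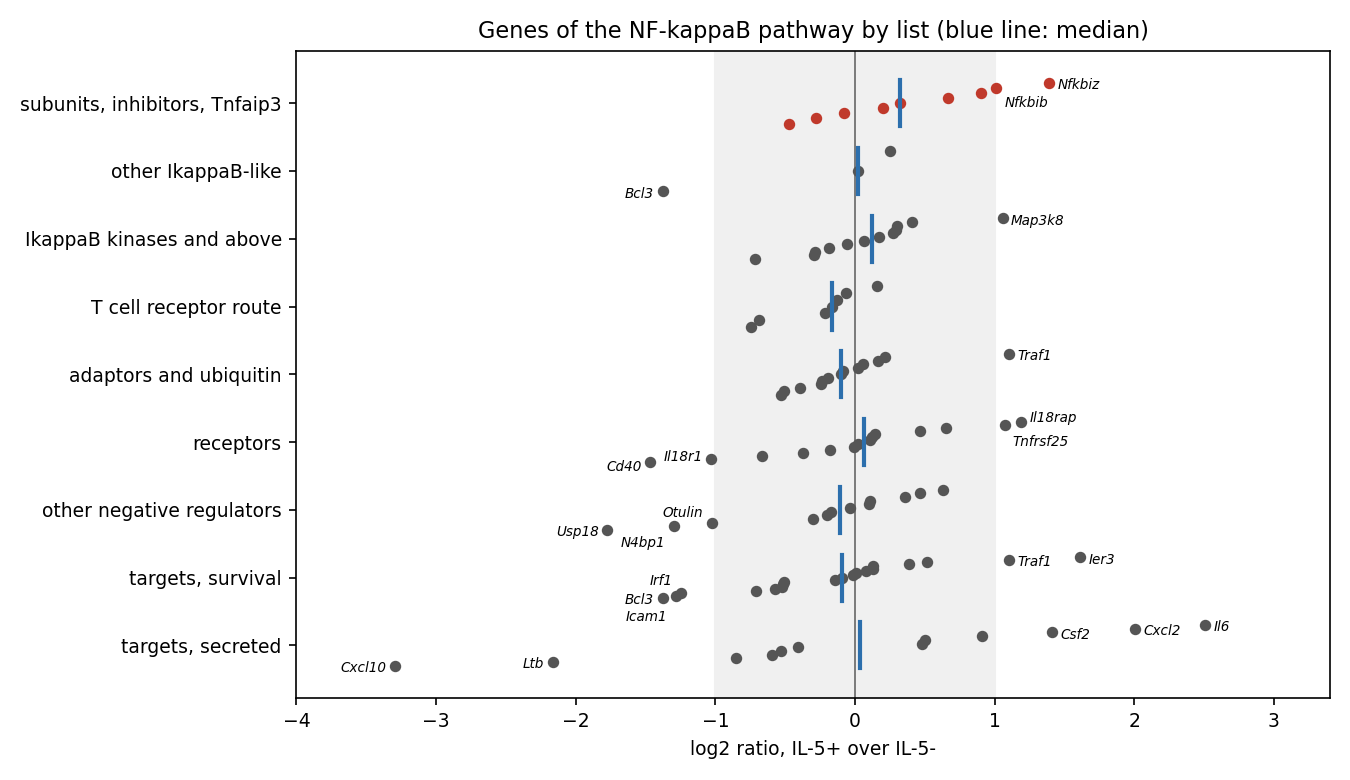
Log2 ratio (IL-5+ over IL-5-) of every gene above the floor in the members' list (red) and in 8 lists of other pathway genes (grey), with the median of each list as a blue line, the band under 2-fold in grey and genes past 2-fold named. List medians lie between -0.17 and 0.32, while single targets spread from -3.30 for Cxcl10 to 2.51 for Il6.

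The 2-fold shares of all genes, 2.85% higher and 4.01% lower, also stand beside the counts of single lists. Of 3 other IkappaB-like genes, 1 was past 2-fold, the lower Bcl3. It encodes a nuclear IkappaB family protein that, like IkappaBzeta, works with p50 or p52 dimers as a transcriptional cofactor. Its probe set gave 276.0 in IL-5+ cells and 717.3 in IL-5- cells, a 2.60-fold lower signal in IL-5+ cells (log2 ratio -1.38). Nfkbid, another nuclear member of the family, had signals of 3585 in IL-5+ and 3020 in IL-5- cells (0.25), and Nfkbil1 of 404.5 in IL-5+ and 398.1 in IL-5- cells (0.023). Bcl3 and the bright Nfkbiz probe set were thus on opposite sides of 0, 2.77 apart on the log2 scale.

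Over all genes, 2.85% were 2-fold higher and 4.01% lower. Among the IkappaB kinases and the proteins above them, 1 of 12 genes was 2-fold higher and 0 lower (median 0.12). That gene was Map3k8, which encodes the kinase Tpl2 that is held by the p105 precursor of NF-kappaB, with 1402 in IL-5+ cells and 673.9 in IL-5- cells (log2 ratio 1.06). Ikbke, an IkappaB kinase-related gene, was at -0.71, and Tab2, an adaptor of the kinase TAK1, was at 0.41. The kinase genes Ikbkb (-0.19) and Map3k14 (-0.29), named after their values were seen, lay within 1.5-fold.

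Of the 7 genes on the T cell receptor route to NF-kappaB, none reached 2-fold and 6 were below 0 (median -0.17). Over all 13133 genes above the floor, 2.85% were 2-fold higher, 4.01% were 2-fold lower and 7285 were below 0. A count of 0 in so short a list thus says little about this route. Plcg1, a phospholipase next to the receptor, had the lowest ratio at -0.75 but 0.084 at its other probe set. Malt1, the protease of the complex with Bcl10, gave 2917 in IL-5+ cells and 4695 in IL-5- cells (-0.69), and its probe sets ran from -1.01 to -0.69. Vav1, an exchange factor downstream of the receptor, was at -0.22.

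Among the TRAF, cIAP and ubiquitin adaptors, 1 of 13 genes was 2-fold higher and 0 lower (median -0.099). The shares over all genes were 2.85% and 4.01%. Traf1, an adaptor of TNF receptors that is also an NF-kappaB target, gave 4166 in IL-5+ cells and 1938 in IL-5- cells (2.15-fold, log2 ratio 1.10), with its other probe set at 0.42. Traf6, the ubiquitin ligase of the IL-1 receptor and Toll-like pathways, was at -0.53. Birc3, a ubiquitin ligase of TNF receptor complexes, was at -0.51, with its other probe set at -0.83.

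Of 14 receptors above the floor, 2 were 2-fold higher and 2 lower (median 0.066), against 2.85% and 4.01% of all genes. Tnfrsf25, the receptor of the cytokine TL1A, gave 3787 in IL-5+ cells and 1802 in IL-5- cells (log2 ratio 1.07). The subunit genes of the IL-18 receptor lay apart from each other, with Il18rap at 1561 in IL-5+ and 683.8 in IL-5- cells (1.19) and Il18r1 at 361.7 in IL-5+ and 739.4 in IL-5- cells (-1.03). Il18r1 fell short of 2-fold with the added constant and with array median, quantile and loess scaling (-0.99 to -0.94), which leaves 1 receptor lower. Cd40, a receptor best known on B cells and dendritic cells, was dim and lower, at 72.2 in IL-5+ cells and 199.6 in IL-5- cells (-1.47), with probe sets from -2.10 to -0.39, and stood at -0.82 when the floor was the 60th percentile. Markers of those cells were also dim. Marker sums leave signals under the floor as measured. For the 7 B cell markers the summed signal was 163.5 in IL-5+ cells and 263.7 in IL-5- cells. Ms4a1, the only one above the floor on both arrays, read 60.7 in IL-5+ and 62.1 in IL-5- cells. Cr2 read 45.5 in IL-5+ and 22.8 in IL-5- cells, and 3 markers (Cd79a, Cd79b and Ebf1) were under the floor on both arrays. The remaining B cell markers, Pax5 at 6.4 in IL-5+ and 70.2 in IL-5- cells and Blk at 8.7 in IL-5+ and 48.0 in IL-5- cells, passed the floor on the IL-5- array only. For the 11 dendritic cell and monocyte markers the sums were 572.7 in IL-5+ and 950.0 in IL-5- cells, with H2-Ab1 at 156.6 in IL-5+ and 250.4 in IL-5- cells, Cd74 at 139.7 in IL-5+ and 163.9 in IL-5- cells, H2-Aa at 51.0 in IL-5+ and 155.8 in IL-5- cells, and Flt3 and Cd14 under the floor. Of these 11, 8 were lower in IL-5+ cells and 1 was higher, counting signals under the floor as the floor. Itgax, Cd209a, Lyz2 and Adgre1 passed the floor on the IL-5- array only, and Xcr1 on the IL-5+ array only. The direction of these markers was thus fixed by the floor. Cd74, H2-Aa, H2-Ab1 and Csf1r were above the floor on both arrays, and each was lower in IL-5+ cells. The part of such cells in the Cd40 or Relb signals was not tested. The 5 CD8 T cell and NK cell markers summed to 1068 in IL-5+ and 1742 in IL-5- cells, a difference that rests on Eomes. Eomes read 640.9 in IL-5+ and 1472 in IL-5- cells. Cd8a was also lower in IL-5+ cells, at 66.9 against 76.7 in IL-5- cells. Higher in IL-5+ cells were Cd8b1, at 280.2 against 168.4 in IL-5- cells, and Fcer1g, at 61.4 against 4.7, the latter under the floor. Ncr1 was under the floor on both arrays.

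Of 12 other negative regulators, 0 were 2-fold higher and 3 lower (median -0.10), against 2.85% and 4.01% of all genes. Otulin encodes a deubiquitinase that removes linear ubiquitin chains, and gave 950.0 in IL-5+ cells and 1936 in IL-5- cells (log2 ratio -1.03). It stood at -0.99 with the added constant and at -0.95 with array median scaling, where 2 genes of the list were lower. N4bp1, a ubiquitin-binding suppressor of NF-kappaB signalling, gave 585.4 in IL-5+ and 1439 in IL-5- cells (-1.30), and its 3 probe sets ran from -1.72 to -1.27. Usp18, which removes the ubiquitin-like protein ISG15 and is a known interferon-induced gene, gave 434.3 in IL-5+ and 1486 in IL-5- cells (-1.77).

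The known NF-kappaB targets lay on both sides of 0. Of 19 survival and signalling targets above the floor, 2 were 2-fold higher and 3 lower (median -0.092), against 2.85% and 4.01% of all genes. Ier3, an early response gene, gave 9016 in IL-5+ cells and 2946 in IL-5- cells (log2 ratio 1.61), and Traf1 was the other. Lower in IL-5+ cells were Bcl3, the adhesion molecule gene Icam1 at 1288 in IL-5+ and 3135 in IL-5- cells (-1.28) and the transcription factor gene Irf1 at 2130 in IL-5+ and 5050 in IL-5- cells (-1.25).

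Of 12 secreted targets, 3 were 2-fold higher and 2 lower, against 2.85% and 4.01% of all genes. Their median was 0.035, but 0.37 under a 60th percentile floor and 0.48 without the _s_at, _x_at and _a_at probe sets. Csf2, which encodes the cytokine GM-CSF, gave 32111 in IL-5+ cells and 12066 in IL-5- cells (1.41). Il6 gave 379.9 in IL-5+ and 66.9 in IL-5- cells (2.51, but 1.75 under a 60th percentile floor and 1.88 with the added constant). Cxcl2, a neutrophil chemokine gene, was at 146.0 on the IL-5+ array and under the floor on the IL-5- array (29.1), at least 4.02-fold higher, though its log2 ratio was 0.37 under a 60th percentile floor. Lower in IL-5+ cells were Ltb, encoding lymphotoxin beta, at 2587 in IL-5+ and 11608 in IL-5- cells (-2.17) and the interferon-inducible chemokine gene Cxcl10 at 101.9 in IL-5+ and 1001 in IL-5- cells (-3.30). Targets of the same textbook list thus lay at both ends of the range on the same pair of arrays.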

How the data were processed

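Gene expression was measured on 2 Affymetrix arrays, 1 of IL-5+ and 1 of IL-5- memory Th2 cells. The authors deposited linear intensity values, 1 for each probe set on each array, which per the submitters' processing notes came from GCOS, scanner software by Affymetrix. The algorithm, software version, scaling target and genome build are not given in the sources used for this work. The platform annotation gave 1 gene symbol to 34945 of 45037 probe sets and several to 932, and did not list 9160. Entrez identifiers of 34741 matched RefSeq genes of GRCm38.p6. Each gene took the value of its brightest probe set (mean log2 signal). Ratios compare the same probe set on both arrays. Signals of different probe sets were set against each other to pick the brightest probe set of a gene and the brightest markers of a list. They were also used to call genes bright or dim, and were summed over marker lists without the floor. No test was possible with 1 array in each group, and precision is limited by the number of arrays. The members and lists were chosen with earlier results of these data known.

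Named from each pathway list were all genes past 2-fold, or the 3 largest differences where fewer passed, and from marker lists the 2 brightest and any past 2-fold. Other markers, such as Cd4, Cd8a, Fcer1g, Pax5 and Blk, were named after their values were seen. Alternatives were a floor at the 20th or 60th percentile, no floor, a constant of 50 added in place of the floor, array median, quantile and loess scaling, other choices of probe sets and thresholds of 1.5-fold and 3-fold. Counting and motif search were tested on simulated data. Software was matplotlib 3.10.9, statsmodels 0.14.6, scipy 1.17.1, pandas 2.3.3 and numpy 2.4.6 under Python 3.11.15.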

Additional observations from a re-analysis of the deposited data

How the results depend on the processing

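No paired analysis was possible because each group has 1 array. Under the other floors, the added constant and the other scalings, every probe set of the members moved by less than its SD between probe sets. At gene level Nfkbia was the only member to change sign, with values between -0.14 and 0.0069. The gene values that moved further did so where the probe sets of a gene were summarised by their median, namely Nfkb2 (0.52), Nfkbiz (0.38) and Tnfaip3 (0.60). The member median was 0.61 without the _s_at, _x_at and _a_at probe sets, which drops Nfkb2, Rela and Nfkbie. Members 2-fold higher numbered 1 with quantile scaling, 1 with loess, 1 with the median of probe sets, 4 at 1.5-fold and 0 at 3-fold. Of single pathway genes past 2-fold, Il18r1, Otulin, Cd40, Cxcl2 and Traf1 fell short of it under at least 1 floor, constant, scaling or probe set choice (Traf1 at 0.76 with the median of probe sets). Tnfrsf25, Cd40, Ier3 and Irf1 gave no value without the _s_at, _x_at and _a_at probe sets. Trib3, a negative regulator, reached 1.01 with the median of probe sets, Tnfaip2 stood at -1.84 with the lower floor or none, and Il1r1 at 1.05 with none. Other pathway genes numbered 17 lower at 1.5-fold, and 3 higher and 3 lower at 3-fold. All genes higher and lower numbered 1325 and 1572 when the floor was the 20th percentile, 183 and 226 when it was the 60th, 2057 and 2311 with no floor, 232 and 300 with the added constant, 1035 and 1560 at 1.5-fold and 91 and 143 at 3-fold. These counts follow from the setting itself, through how many dim genes or how small a difference it admits.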

Other observations

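Beyond the members, 650 genes above the floor had a kappaB consensus match in a RefSeq promoter window. Of these, 2.62% were 2-fold higher and 5.69% 2-fold lower in IL-5+ cells (median log2 ratio -0.059). The 9935 genes above the floor whose windows held no match had shares of 2.78% and 3.67% (median -0.050). Among genes with a signal of 500 or more, 282 with a match had shares of 3.55% higher and 4.61% lower, and 4793 without one had 2.04% and 2.13%. The difference between these shares was not tested, and genes are not independent replicates.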
